A study of Homo sapiens with 8 samples.

Results

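The genes of TGF-beta, activin, and BMP signaling were followed in CSCs (H460C) and cisplatin-resistant cells (H460R) derived from H460, an established human NSCLC line. The set holds 46 genes, chosen by pathway membership and not by their measured values. They are 4 activin and inhibin subunits, 3 TGF-beta ligands, 4 BMP ligands, NODAL, 7 antagonists, 10 receptors, 5 receptor-regulated SMADs, the common SMAD4, 3 inhibitors inside the cell, 4 latent TGF-beta binding proteins (LTBPs), and 4 ID genes. Probes were assigned to a member through the RefSeq accession of the array design, which gave 65 probes for the 46 genes. Of the 46 genes, 37 had a probe above the filter on dim probes, out of 20317 gene names tested among 32642 on the array.

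Gene expression was read on 8 dual-color Agilent human arrays, 4 for H460C and 4 for H460R. The labels give 2 replicate RNA samples per population, and each was hybridized against H460 RNA on 2 arrays with the dyes swapped. H460 and H460R cells had been kept in RPMI with 10% serum. H460R cells had survived 0.5 μg/mL of cisplatin given for 72 h and were then grown without the drug, whereas H460C cells had been selected as nonadherent spheres in DMEM/F12 with N2 supplement, BSA, EGF, and bFGF and no serum. Medium, adhesion, and selection therefore differ together between H460C and the other cells. The labels name a single H460 RNA for all 8 arrays, so both comparisons share their control, and neither one contains its spread. The replicate difference in H460C did not repeat between dye orientations (r = -0.0106 across 24642 probes, compared to r = 0.267 across 25713 probes in H460R). The replicates of H460C were thus closer to each other than the hybridization noise and were counted as 1 sample, so H460C values have no SD. H460R values are mean ± SD (n = 2). Nothing in the labels says that the H460R samples came from separate cultures, so their spread may be technical. The arrays of a population shared a slide, and effects of the slide cannot be told apart from those of the cells.

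Ligands of this family are secreted as dimers, and TGF-beta stays in a latent complex in the matrix that LTBPs anchor. Ligand binding joins a type II to a type I serine/threonine kinase receptor. Receptors for TGF-beta and activin then phosphorylate SMAD2 and SMAD3, and receptors for BMPs phosphorylate SMAD1, SMAD5, and SMAD9. Both groups enter the nucleus with SMAD4. In epithelial cells the TGF-beta branch is known for growth arrest and for epithelial-mesenchymal transition, and the ID genes are classical targets of the BMP branch.

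The epithelial keratins KRT8, KRT18, and KRT19 were well above background in every channel, whereas CDH1, which encodes E-cadherin, was so in H460C but on no array in H460R or H460. Of the leukocyte markers, PTPRC was well above background on no array, whereas CD14 and CD79A were so in every channel. Of the endothelial markers, TEK was so on no array, whereas KDR was in all H460 channels and VWF on 3 to 4 of the 4 arrays in either population. Of 5 fibroblast markers 4 were tested, and LUM, the gene of lumican, was at -3.23 in H460C (Rank Products FDR = 0.00498), whereas COL3A1 was at 1.22. The summed intensity of the fibroblast list ranged from 1749 to 1930 in H460C, from 1875 to 2737 in H460R, and from 2445 to 3933 in H460. The part of other cells in the results was not tested. These are bulk RNA samples, in which fewer cells of a type and less RNA per cell cannot be told apart.

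The clearest changes in H460C were in activin and its antagonist. INHBA, the activin A subunit, was 8.61-fold higher than in H460, and FST, which encodes the activin antagonist follistatin, was 10.6-fold lower. In H460R, INHBA was 3.93-fold higher, and FST was not called. By Rank Products, which ranks the ratios within each replicate (FDR of 0.05), these were the only members called among the 37. They make 1 higher and 1 lower member in H460C, where 1.06% of all tested genes were called (0.556% higher and 0.502% lower), and 1 higher member in H460R, where 0.965% were (0.487% higher and 0.477% lower). As H460C counts as 1 sample, its FDR covers the noise between hybridizations only. At an unadjusted p under 0.05 the same test gave 5 higher and 8 lower members in H460C (9.47% and 9.68% of all genes), and 11 higher and 2 lower in H460R (9.36% and 9.21% of all genes). A fold rule asked for at least 2-fold with one sign on all 4 arrays of a population. It was met by INHBA (higher), FST, and LTBP3 (both lower) in H460C (3.9% of all genes, 2.46% higher and 1.44% lower) and by INHBA, LTBP1, and ID3, all higher, in H460R (2.09% of all genes, 1.49% higher and 0.605% lower). Limma against 0, a less strict test that also takes small shifts, called 24 of the 37 members in H460C, compared to 57.3% of all genes, and 29 in H460R, compared to 68%.

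H460C and H460R were then compared directly with limma, in which the shared H460 RNA cancels. Of the 37 members, 24 (64.9%) differed at an adjusted p of 0.05, compared to 46.5% of all genes. Of these, 8 were higher in H460C (22.8% of all genes) and 16 were higher in H460R (23.7% of all genes). Among the called members, TGFB3, INHBE, and BMP7 passed the filter on dim probes only through H460C, and INHBB only through H460R. Each was higher in the cells that brought it past the filter, so the direction of these calls is not independent of the filter. Differences of at least 1 on the log2 scale were found in 9 members, against 8.04% of all genes. H460C enters this test as 1 sample that is assumed to vary as the H460R samples do, with 1 residual degree of freedom. As the spread of the H460R samples may be technical, SEs, intervals, and p-values of this test may not cover variation between cultures. The median log2 ratio of the members was -0.12 in H460C and 0.20 in H460R, compared to 0.00 and 0.01 over all genes. On the measured arrays of a population, 30 members had one sign in H460C (81.1%, and 66.2% of all genes) and 29 in H460R (78.4%, and 59% of all genes).

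**Figure D1:**
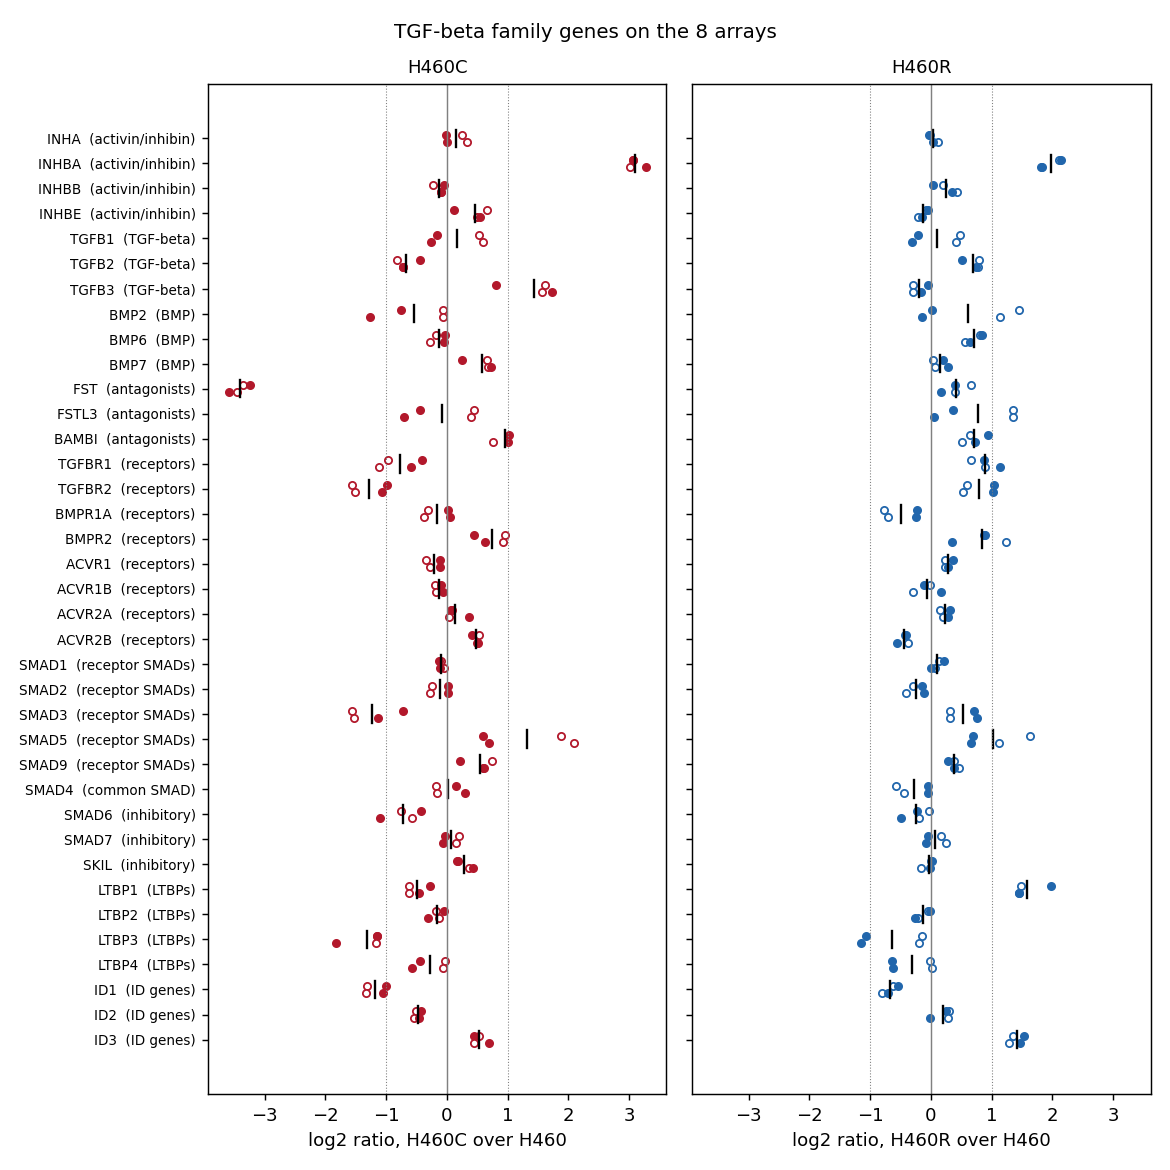
Log2 ratio over H460 of the 37 tested members on each array, H460C on the left and H460R on the right, ordered by role. Filled points are arrays with the studied cells in Cy5, open points those in Cy3, black bars are means, and dotted lines mark a 2-fold change. INHBA stands at 3.11 and 1.98, FST at -3.41 and 0.41, and TGFBR1, TGFBR2, SMAD3, and LTBP1 lie left of 0 in H460C and right of 0 in H460R.

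Per-array log2 ratios are given below for replicate 1 with the studied cells in Cy3 and in Cy5, and then for replicate 2 in the same order. INHBA (NM_002192) read 3.06, 3.07, 3.02, and 3.28 in H460C, and 2.11, 2.14, 1.82, and 1.84 in H460R. Every H460C array lay above every H460R array, and all 8 lay above H460. The mean was 3.11 in H460C (Rank Products FDR = 0.0116) and 1.98 ± 0.21 in H460R (FDR = 0.0224), and the difference of 1.13 (SE 0.13) passed the limma test with an adjusted p of 0.000481. With the log ratio of the scanner software in place of the ratios used here, the Rank Products FDR of INHBA was 0.0742 in H460C and 0.137 in H460R. The study also chose INHBA for its own lists on these samples. Its text places INHBA among genes regulated specifically in CSCs, whereas here INHBA was also called higher in H460R by Rank Products.

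FST (NM_013409) gave -3.36, -3.25, -3.46, and -3.59 in H460C, compared to 0.67, 0.40, 0.41, and 0.17 in H460R. Its spot was well above background in every channel, so the low level in H460C was still measured. The mean of -3.41 in H460C was called (Rank Products FDR = 0.00346), and that of 0.41 ± 0.17 in H460R was not (FDR = 0.8). FST showed the widest difference of all members, -3.82 (SE 0.12, limma adjusted p = 2.19e-06), or 14.2-fold more in H460R than in H460C.

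The promoters of both genes are shown because they carry these 2 extremes. Each is the stretch of 250 bases before the gene's start in RefSeq (build GRCh38.p14), 5′ to 3′ on the gene's strand, and a promoter was found for 40 of the 46 members. Capitals mark matches on either strand to the AP-1 box TGANTCA, the cAMP response element TGACGTCA, the SMAD box CAGAC, or the BMP-SMAD box GGCGCC. INHBA is at chr7:41703091-41703340, minus strand, and FST at chr5:53480379-53480628, plus strand.
INHBA: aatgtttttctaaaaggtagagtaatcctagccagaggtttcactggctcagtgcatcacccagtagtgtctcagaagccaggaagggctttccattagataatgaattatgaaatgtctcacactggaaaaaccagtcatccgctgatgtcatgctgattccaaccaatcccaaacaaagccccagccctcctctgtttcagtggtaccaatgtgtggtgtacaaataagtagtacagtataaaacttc
FST: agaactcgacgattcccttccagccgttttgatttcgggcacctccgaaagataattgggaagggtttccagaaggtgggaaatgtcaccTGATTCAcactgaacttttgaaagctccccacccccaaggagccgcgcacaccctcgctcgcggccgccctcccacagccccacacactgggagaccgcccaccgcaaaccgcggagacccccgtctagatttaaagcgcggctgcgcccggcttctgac
The INHBA stretch holds none of the 4 motifs, and the FST stretch holds 1 match to the AP-1 pattern that begins at base -160. This match reads TGATTCA, as the pattern searched allows any base (N) in its middle. A match to the pattern was in 6.57% of the 35116 promoters of the table and in 3 of the 40 members, or 7.5%.

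The other activin and inhibin subunits were dim. INHBE, the activin E subunit, was at 0.66, 0.12, 0.50, and 0.54 in H460C and at -0.07, -0.05, -0.22, and -0.15 in H460R, and the difference of 0.58 (SE 0.10) passed the limma test (adjusted p = 0.0029). It was 2.09 in the scanner software's log ratio. The H460 channel was well above background on only 1 of the 4 H460C arrays and on all 4 H460R arrays, and INHBE passed the filter only through H460C. INHBB, the activin B subunit, was not well above background on any H460C array. It was higher in H460R, with a lower bound of 1.24-fold (measured means -0.12 and 0.26 ± 0.19, limma adjusted p = 0.0448). INHBB lost its call in 5 of 15 alternatives. Such a lower bound sets the mean of the brighter cells against the dimmest signal that was still well above background, or the probe's own where that was higher. It leaves out the spread between arrays, and the 95% confidence interval of the INHBB difference was -0.67 to -0.08. INHA, the inhibin alpha subunit, had means of 0.15 and 0.03 ± 0.07, and was not called (difference 0.11, 95% confidence interval -0.12 to 0.34).

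TGFB2 and TGFB3, both TGF-beta ligands, differed between the populations in opposite directions. TGFB2 (NM_003238) was at -0.83, -0.44, -0.73, and -0.73 in H460C and at 0.79, 0.51, 0.77, and 0.74 in H460R. TGFB3 (NM_003239) was at 1.62, 0.82, 1.57, and 1.74 in H460C and at -0.29, -0.05, -0.29, and -0.16 in H460R. TGFB2 was thus below H460 on the H460C arrays and above it on the H460R arrays, and TGFB3 the other way around. The difference was -1.38 (SE 0.10, limma adjusted p = 4.78e-05) for TGFB2 and 1.63 (SE 0.09, adjusted p = 1.89e-05) for TGFB3. The size for TGFB3 depended on the background correction, with 2.41 at a normexp offset of 0 and 3.55 in the scanner software's log ratio. In H460R its spot was well above background on 3 of 4 arrays, and the probe passed the filter only through H460C. A second TGFB3 probe was well above background on no array and did not pass the filter. TGFB1, the most widely expressed ligand of the 3 in adult tissues, was near H460 in both populations (0.18 and 0.10 ± 0.06), and its ratios moved with the dye, between -0.31 and 0.59.

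BMP ligands that were measured are BMP2, BMP6, and BMP7, which signal through SMAD1, SMAD5, and SMAD9. BMP6 (NM_001718) was at -0.18, -0.03, -0.27, and -0.05 in H460C and at 0.80, 0.83, 0.57, and 0.64 in H460R. All H460R arrays lay above all H460C arrays, with a difference of -0.85 (SE 0.11, limma adjusted p = 0.000932). BMP2 (NM_001200) read -0.07, -0.75, -0.06, and -1.27 in H460C and 1.45, 0.02, 1.14, and -0.15 in H460R. Its ratios moved with the dye, and within each dye H460R was the higher one. The difference was -1.15 (SE 0.12, adjusted p = 0.000277), and it was -1.79 in the scanner software's log ratio. BMP7 was not well above background in H460 on any array, and it passed the filter only through H460C. It measured 1.49-fold higher in H460C (mean 0.58, limma adjusted p of the ratio against 0 of 0.000568). In H460R it measured 1.11-fold higher (0.15 ± 0.04, limma adjusted p = 0.0427). Neither ratio was called by Rank Products (FDR = 0.657 in H460C). The size of both ratios rests on an H460 signal that was not well above background. In the scanner software's log ratio the mean in H460C was 2.4. The direct difference was 0.43 (SE 0.09, limma adjusted p = 0.00843). The BMP7 spot was well above background on only 2 of 4 arrays in H460R, and the difference was 1.52 in the scanner software's log ratio. The call was lost with median centring and on the Cy5 arrays. A second BMP7 probe was well above background on no array.

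Among the antagonists other than FST, FSTL3, a follistatin-like protein that also binds activin, was at 0.44, -0.45, 0.40, and -0.71 in H460C and at 1.35, 0.37, 1.35, and 0.06 in H460R. The dyes gave opposite signs in H460C, and H460R was higher in each of them. FSTL3 differed by -0.86 (SE 0.11, limma adjusted p = 0.000576). BAMBI, a pseudoreceptor that lacks the kinase domain, lay above H460 on every measured array, at 1.02, 0.75, and 1.02 in H460C, where 1 spot was marked as an outlier and left out, and at 0.65, 0.94, 0.52, and 0.72 in H460R. Its difference of 0.25 was not called (95% confidence interval -0.01 to 0.50, adjusted p = 0.106). The BMP antagonists GREM1 and NOG and the nodal antagonists LEFTY1 and LEFTY2 did not pass the filter, with GREM1 and LEFTY2 well above background on no array.

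**Figure D2:**
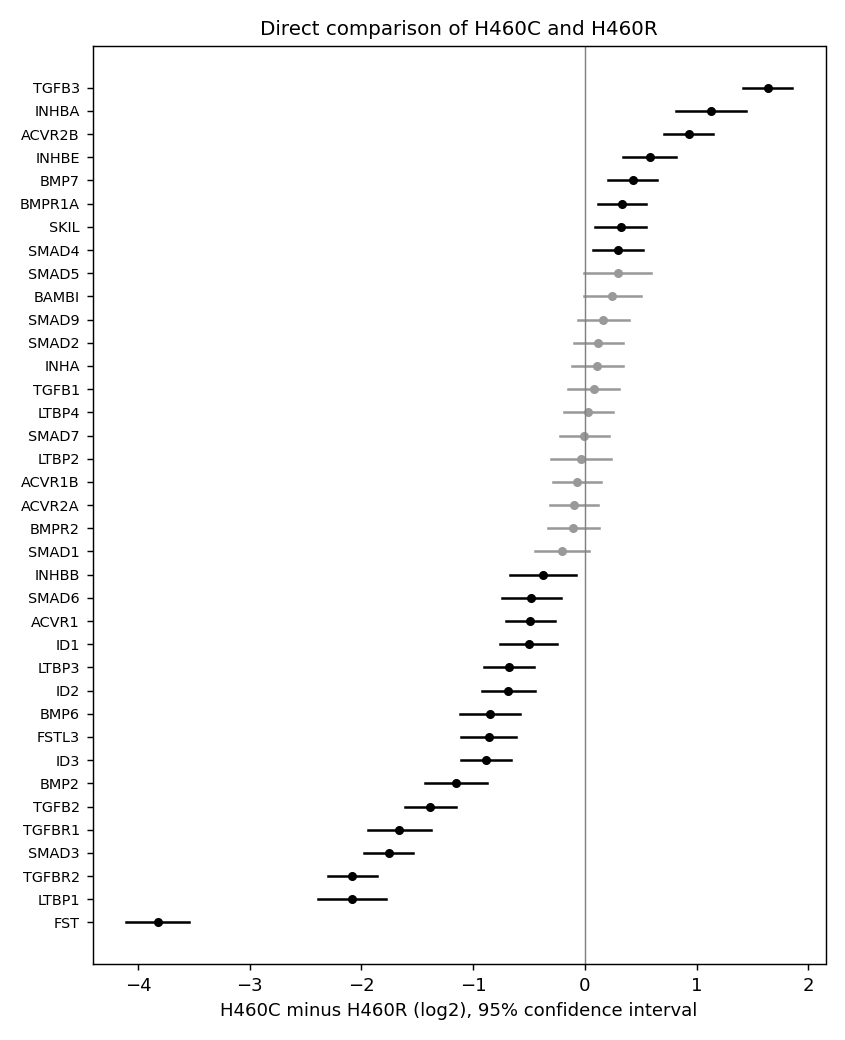
H460C minus H460R on the log2 scale for the 37 tested members, with 95% confidence intervals from limma. Black marks the 24 members that passed at an adjusted p of 0.05 and gray the others. FST lies farthest on the negative side at -3.82, and TGFB3, at 1.63, and INHBA, at 1.13, are the farthest on the positive side.

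Both kinases of the TGF-beta receptor complex were lower in H460C than in H460R. TGFBR2 (NM_001024847), the type II receptor that binds the ligand first, read -1.57, -0.98, -1.51, and -1.07 in H460C and 0.59, 1.04, 0.53, and 1.03 in H460R. TGFBR1 (NM_004612), the type I receptor, read -0.98, -0.40, -1.11, and -0.58 in H460C and 0.67, 0.87, 0.89, and 1.14 in H460R. For each receptor the arrays of the populations lay on opposite sides of H460 without overlap. TGFBR2 differed by -2.08 (SE 0.09, limma adjusted p = 6.66e-06), or 4.23-fold, and TGFBR1 by -1.66 (SE 0.12, adjusted p = 5.37e-05), or 3.16-fold. In the scanner software's log ratio the difference of TGFBR1 was -2.64. Neither receptor was called against H460 by Rank Products (FDR between 0.154 and 0.423).

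The activin and BMP receptors varied less. ACVR2B, an activin type II receptor, was higher in H460C, at 0.53, 0.41, 0.50, and 0.51 in H460C and -0.41, -0.43, -0.37, and -0.56 in H460R. Its difference was 0.93 (SE 0.09, limma adjusted p = 0.000243), and both further probes for ACVR2B were also called, at 0.36 and 0.53. The brightest probe of BMPR1A, a BMP type I receptor, was closer to H460 in H460C (-0.15) than in H460R (-0.48 ± 0.02). Its difference was 0.33 (limma adjusted p = 0.0228), and the other 2 probes did not pass (0.24 and 0.22). Those 2 probes were closer to H460 in H460R (0.08 and -0.04) than in H460C (0.32 and 0.18). ACVR1, a type I receptor that binds BMPs and activin, was lower in H460C (-0.21) than in H460R (0.28 ± 0.03, difference -0.49, adjusted p = 0.00446). The intervals of ACVR1B, ACVR2A, and BMPR2 included 0. BMPR2, the BMP type II receptor, was above H460 on all arrays, between 0.35 and 1.24. TGFBR3, a coreceptor also called betaglycan, and BMPR1B did not pass the filter.

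SMAD3 stood apart from the other SMADs. Its ratios were -1.55, -0.72, -1.52, and -1.14 in H460C and 0.31, 0.71, 0.31, and 0.76 in H460R (NM_005902). The populations did not overlap, and H460 lay between them. The difference of -1.75 (SE 0.09, limma adjusted p = 1.35e-05) corresponds to 3.38-fold less in H460C, and it was -2.41 in the scanner software's log ratio. SMAD2, the other SMAD of the TGF-beta and activin branch, had means of -0.12 and -0.24 ± 0.03, and a difference of 0.12 that was not called (95% confidence interval -0.10 to 0.34). Its further probes were not called either, but their levels against H460 varied in sign. Their means in H460C and H460R were -0.54 and -0.46, 0.31 and 0.14, and 0.10 and 0.01. The promoter of SMAD3 (chr15:67065352-67065601, plus strand, capitals as above) is shown as that of the one receptor-regulated SMAD called between the populations.
SMAD3: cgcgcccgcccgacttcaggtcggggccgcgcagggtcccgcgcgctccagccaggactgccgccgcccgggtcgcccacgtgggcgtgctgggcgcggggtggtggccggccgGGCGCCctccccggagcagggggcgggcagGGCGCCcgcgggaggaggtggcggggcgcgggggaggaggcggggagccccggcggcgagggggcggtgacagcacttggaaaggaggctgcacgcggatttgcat
It holds 2 BMP-SMAD boxes, at -136 and -106, and none of the other motifs. A BMP-SMAD box was in 16.4% of all promoters and in 13 of the 40 members, or 32.5%.

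In the BMP branch, SMAD5 was above H460 on every array, but its level moved with the dye, at 1.88, 0.60, 2.10, and 0.70 in H460C and at 1.63, 0.69, 1.13, and 0.66 in H460R. Its difference of 0.29 was not called (95% confidence interval -0.00 to 0.59). SMAD9 was also above H460 on every array (means 0.54 and 0.38 ± 0.07) and SMAD1 near it (-0.10 and 0.10 ± 0.09), and neither was called, although a second SMAD1 probe was (-0.41, limma adjusted p = 0.0153). SMAD4, the partner of both branches, was at 0.03 in H460C and -0.27 ± 0.05 in H460R, with a difference of 0.30 (adjusted p = 0.0373). Of the inhibitors, SMAD6, which blocks the BMP branch, was below H460 on all arrays and lower in H460C (-0.72, and -0.24 ± 0.14 in H460R, difference -0.48, adjusted p = 0.0114). The SMAD6 difference was -1.45 in the scanner software's log ratio and lost its call with median centring and on the Cy5 arrays. SKIL, a corepressor of SMAD complexes, was higher in H460C by 0.32 (adjusted p = 0.0317). SMAD4 lost its call in 5 of 16 alternatives and SKIL in 4, with adjusted p up to 0.254 and 0.343. SMAD7, which blocks receptor signaling of both branches and is itself induced by TGF-beta, was at 0.07 in both populations, with a difference of -0.01 (95% confidence interval -0.22 to 0.21).

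LTBPs hold latent TGF-beta in the matrix. LTBP1 (NM_206943) was at -0.62, -0.27, -0.62, and -0.47 in H460C and at 1.48, 1.98, 1.45, and 1.45 in H460R. No array of one population came near those of the other. The mean in H460R, 1.59 ± 0.20, was the second highest of the members after INHBA, but did not pass Rank Products (FDR = 0.0716). LTBP1 differed by -2.08 (SE 0.13, limma adjusted p = 2.6e-05), or 4.23-fold, and by -3.14 in the scanner software's log ratio. The stretch before its start is at chr2:32946703-32946952, plus strand, and is shown because it has matches to 2 of the motifs beside a large difference.
LTBP1: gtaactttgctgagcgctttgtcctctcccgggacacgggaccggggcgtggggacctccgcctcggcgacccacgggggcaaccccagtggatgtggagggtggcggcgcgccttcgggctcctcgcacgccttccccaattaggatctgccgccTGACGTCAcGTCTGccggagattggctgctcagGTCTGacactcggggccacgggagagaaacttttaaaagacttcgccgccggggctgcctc
It holds a cAMP response element at -94 and 2 SMAD boxes, at -85 and -61, read here on the other strand as GTCTG. A cAMP response element was in 1.65% of all promoters and in 2 of the 40 members (5%), and a SMAD box in 38% and in 16 of the 40 (40%).

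LTBP3 (NM_021070) was at -1.16, -1.14, -1.16, and -1.83 in H460C and at -0.15, -1.06, -0.20, and -1.15 in H460R. It was below H460 on every array, and its H460R values split by dye. The brightest probe differed by -0.68 (SE 0.10, limma adjusted p = 0.00106), whereas a second LTBP3 probe gave -0.12 and -0.08 and was not called. On the Cy5 arrays alone the difference was -0.38 and was not called (adjusted p = 0.0504). LTBP2 and LTBP4 had means between -0.31 and -0.13 in both populations, and differences of -0.04 and 0.03 that were not called.

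The 3 measured ID genes, which encode inhibitors of basic helix-loop-helix transcription factors, were all lower in H460C than in H460R. They differed in their level against H460. ID1 (NM_002165) read -1.32, -1.0, -1.34, and -1.05 in H460C and -0.63, -0.54, -0.81, and -0.71 in H460R, below H460 throughout. ID3 (NM_002167) read 0.54, 0.44, 0.45, and 0.69 in H460C and 1.36, 1.54, 1.28, and 1.47 in H460R, above H460 throughout. ID2 lay in between, at -0.50, -0.42, -0.53, and -0.47 in H460C and at 0.29, 0.25, 0.28, and -0.01 in H460R. The difference was -0.50 for ID1 (SE 0.11, limma adjusted p = 0.00752), -0.68 for ID2 (SE 0.10, adjusted p = 0.0015), and -0.88 for ID3 (SE 0.10, adjusted p = 0.000328). ID4 did not pass the filter. A second ID2 probe was also called (-1.16). The ID1 difference lost its call with median centring, on the Cy5 arrays alone, and in the scanner software's log ratio.

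The promoters of ID1 (chr20:31605039-31605288, plus strand) and ID3 (chr1:23559502-23559751, minus strand) are shown as family members on opposite sides of H460.
ID1: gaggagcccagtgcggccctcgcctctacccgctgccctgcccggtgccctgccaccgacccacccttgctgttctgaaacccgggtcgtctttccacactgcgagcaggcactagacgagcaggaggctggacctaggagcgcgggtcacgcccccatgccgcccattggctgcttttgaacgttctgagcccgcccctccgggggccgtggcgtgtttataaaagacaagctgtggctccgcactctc
ID3: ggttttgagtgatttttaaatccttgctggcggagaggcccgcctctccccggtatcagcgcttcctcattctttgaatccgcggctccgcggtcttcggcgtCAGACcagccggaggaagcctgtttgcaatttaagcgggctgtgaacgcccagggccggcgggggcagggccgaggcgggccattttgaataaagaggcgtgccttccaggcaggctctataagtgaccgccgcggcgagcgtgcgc
ID1 holds none of the 4 motifs in this window, and ID3 holds a SMAD box at -147. These letter matches are descriptions and do not show binding.

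**Figure D3:**
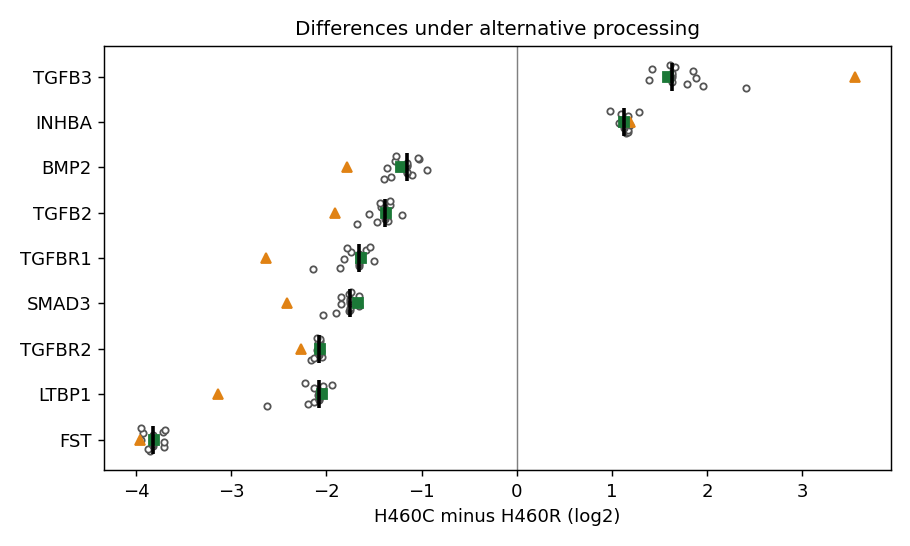
H460C minus H460R (log2) of the 9 members with a difference of at least 1, under the processing used here (black bar), the authors' table of ratios (green square), the scanner software's log ratio (orange triangle), and the other alternatives (open circles). No value crosses 0, FST stays between -3.96 and -3.70, and TGFB3 ranges from 1.39 to 3.55.

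Of the 9 members that did not pass the filter, BMP4, NODAL, GREM1, and LEFTY2 were well above background on none of the arrays. BMP4 is a ligand of the BMP branch, and NODAL a ligand of the activin branch known from embryonic and pluripotent cells. TGFBR3 was the nearest to the filter, well above background on 3 of 4 arrays in either population. For NOG, LEFTY1, ID4, and BMPR1B this was so on at most 2 of the 4 arrays of a population.

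A further 90 genes of the pathway (other ligands and receptors, extracellular regulators, latency and activation, intracellular regulators, and targets) were read in the same way. Those named below beyond the 9 genes of the plot by array were chosen after their values were seen. Of these, 87 were on the array and 60 were tested. By limma, 13 were higher in H460C and 24 were higher in H460R, or 61.7% of those tested, compared to 46.5% of all genes (22.8% and 23.7%). Rank Products, which called 1.06% of all genes in H460C and 0.965% in H460R, called HEY1 higher and FBN2, CRIM1, and FSTL1 lower in H460C, and GDF15, CCN1, and CDKN1A higher and FBN2 lower in H460R.

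Fibrillins and extracellular regulators were among the largest of these. FBN2, a fibrillin of the microfibrils that bind LTBPs and BMPs, was at -4.25, -3.17, -4.24, and -4.27 in H460C (FDR = 0.000769) and at -1.75, -1.58, -1.75, and -1.67 in H460R (Rank Products FDR = 0.0133). FBN1, another fibrillin, was at -1.69, -1.31, -1.65, and -1.58 in H460C but at 1.21, 1.05, 1.21, and 1.25 in H460R. FBN2 was thus low in both populations, whereas FBN1 was low in H460C and high in H460R (difference -2.74, limma adjusted p = 2.95e-06). CRIM1, a transmembrane protein that binds BMPs, was also split, with -2.41, -1.58, -2.33, and -2.16 in H460C (FDR = 0.0332 by Rank Products) and 1.18, 1.52, 1.16, and 1.16 in H460R. CRIM1 and FBN2 also belong to lists that the study chose on these samples. FSTL1, a secreted follistatin-like protein, had a mean of -2.26 in H460C (FDR = 0.0242 by Rank Products) and -0.21 ± 0.12 in H460R. Of the 9 extracellular regulators tested, 5 were higher in H460R and 3 in H460C (23.7% and 22.8% of all genes), the latter being BMPER, CHRD, and NBL1, with differences of 0.45, 0.41, and 0.31.

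**Figure D4:**
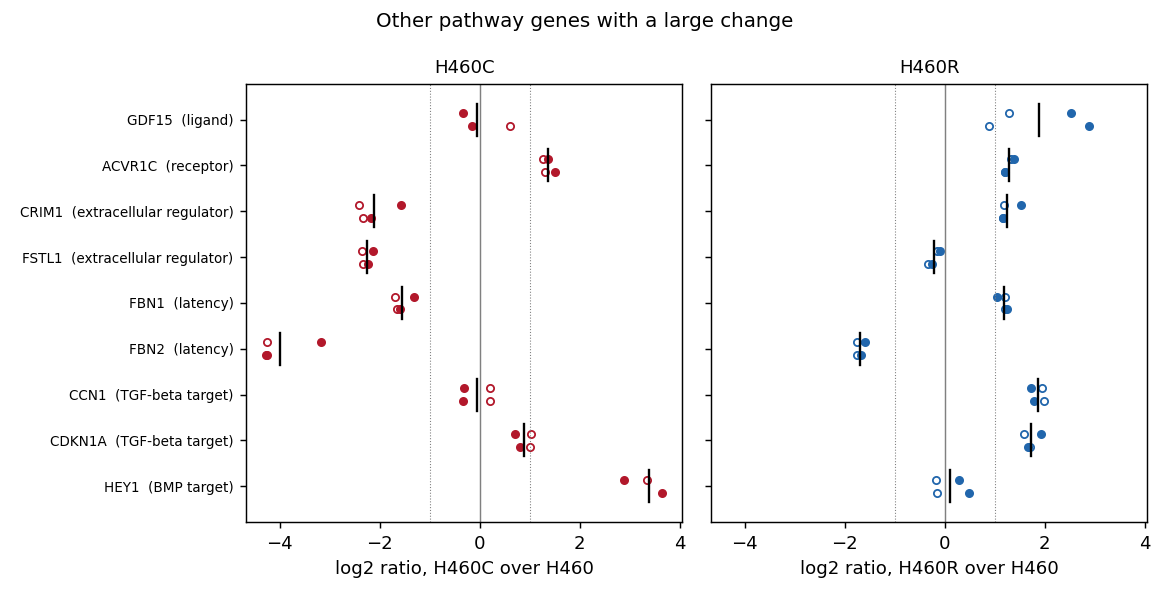
Log2 ratio over H460 on each array of 9 other pathway genes called by Rank Products or changed at least 2-fold on all 4 arrays of a population. Symbols are as in the plot of the members by array. FBN1 and CRIM1 lie below -1 in H460C and above 1 in H460R, FBN2 is low in both, the GDF15 spots were largely saturated, and HEY1 stands at 3.39 in H460C and at 0.11 in H460R.

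Targets did not share one direction. Of 10 TGF-beta targets tested, 4 were higher in H460C and 5 in H460R by limma (22.8% and 23.7% of all genes). CCN1, a matricellular protein, was at 1.95, 1.72, 1.99, and 1.79 in H460R (Rank Products FDR = 0.0279) and between -0.33 and 0.21 in H460C. CDKN1A, the cell cycle inhibitor p21 and also a target of p53, averaged 1.73 ± 0.05 in H460R (FDR = 0.0431 by Rank Products) and 0.89 in H460C. CCN2, another matricellular protein, read -2.32, -0.04, -2.32, and -1.92 in H460C and 0.12, 0.91, 0.01, and 0.31 in H460R. It was lower in H460C (limma adjusted p = 5.64e-05), where 1 array lay near 0 and the replicates gave -1.18 and -2.12. CCN2 passed the filter only through H460R. Targets higher in H460C included SNAI1, a repressor of E-cadherin, COL4A1, and JUNB, by 1.25, 1.16, and 0.49. Of 6 BMP targets tested, 1 was higher in H460C and 2 in H460R by limma (22.8% and 23.7% of all genes). The former was HEY1, a transcription factor induced by BMP and by Notch. HEY1 was at 3.36, 2.89, and 3.66 in H460C, with 1 array left out as an outlier (FDR = 0.0059 by Rank Products), and at 0.11 ± 0.08 in H460R.

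Among further ligands and receptors, GDF15, a distant family member and stress-induced cytokine, was called higher in H460R (Rank Products FDR = 0.0253), but its spot was saturated on all 4 H460R arrays, on 3 in H460C, and on 4 of the 8 H460 channels, so no size is given. BMP5 was at -0.45 in H460C and 1.07 ± 0.13 in H460R (difference -1.52, limma adjusted p = 5.07e-05). ACVR1C, the type I receptor ALK7, was at least 2-fold above H460 on all 8 arrays, with means of 1.36 and 1.28 ± 0.10 and a difference of 0.08 that was not called. Of the 15 intracellular regulators, 4 were higher in H460C and 2 in H460R, or 40%, compared to 46.5% of all genes. NEDD4L, a ubiquitin ligase for SMADs, showed the widest difference among them, 1.42 (0.93 in H460C and -0.49 ± 0.01 in H460R, limma adjusted p = 3.21e-05).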

How the data were processed

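The authors extracted the arrays with Feature Extraction (version 10.1.1.1). Values started from the deposited median spot and local background intensities, which are not normalized. The deposited log10 ratio of that software, which includes its own background and dye correction, and the authors' table of log2 ratios of studied cells over H460, whose background correction and normalization are not given in the sources used here, served as alternatives. The software's 0 or 1 score for outliers, saturation, and signal well above background was used as deposited. The log10 ratios of 1 array had lost their decimal points and were divided by 10 to the power of 9. The planned mean intensities were replaced by the median ones that the files hold.

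Background was corrected with normexp (limma 3.58.1, R 4.3.3, offset 50), control and outlier spots were dropped, ratios were normalized by loess within arrays and turned to studied cells over H460, and spots were averaged per probe. Probes with at least 0.5 of their spots well above background in every channel of at least one population were tested (26014 of 41000), and a gene was read from its brightest such probe. Dye-swapped arrays of a sample were averaged. Each population was compared with H460 by Rank Products (exact distribution, Benjamini-Hochberg, FDR of 0.05), which for H460C covers the noise between hybridizations only. H460C, averaged into 1 ratio, was compared with H460R by limma, two-sided (1 residual and 6.28 prior degrees of freedom). Both tests were tested on simulated data, with far fewer changed probes than limma called in the real data. There limma recovered 12% of changes of log2 size 1 and 68% of size 2, with 0 false calls among 134. Rank Products recovered 100% of either size, with 7 false calls among 207. In the real data a mean of 1.59 (LTBP1 in H460R) did not pass Rank Products (FDR = 0.0716), so this recovery does not carry over. The number of arrays limits the precision. Alternatives were other background corrections and scalings, filters, single dyes, the mean over probes, limma in place of Rank Products, H460C as 2 samples, a replicate block, and each replicate left out. Members and lists were chosen with earlier results of these data known. All members are named, and so are the pathway genes called by Rank Products or by the fold rule, except those not reported. Of the markers only a part is named, and none of the mesenchymal list. Some pathway genes are counted but not reported here. Gene names came from the RefSeq table of GRCh38.p14, which matched 23958 of 25868 probes with RefSeq accessions. Replicate numbers shared by the populations did not mark pairs in the labels.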

Additional observations from a re-analysis of the deposited data

Results flagged for a closer look

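H460C and H460R, each measured against the same H460 RNA, differed in 24 of the 37 members by limma, compared to 46.5% of all genes, and each is given here as H460C minus H460R on the log2 scale. Members higher in H460C were TGFB3 (1.63), INHBA (1.13), ACVR2B (0.93), INHBE (0.58), BMP7 (0.43), BMPR1A (0.33), SKIL (0.32), and SMAD4 (0.30). Members with a difference below -1 were FST (-3.82), LTBP1 (-2.08), TGFBR2 (-2.08), SMAD3 (-1.75), TGFBR1 (-1.66), TGFB2 (-1.38), and BMP2 (-1.15). Smaller differences with more RNA in H460R were those of ID3 (-0.88), FSTL3 (-0.86), BMP6 (-0.85), LTBP3 (-0.68), ID2 (-0.68), ID1 (-0.50), ACVR1 (-0.49), SMAD6 (-0.48), and INHBB (-0.38). INHBB was well above background on no H460C array, and its lower bound of 1.24-fold leaves out the spread between arrays. TGFB3, INHBE, and BMP7 passed the filter only through H460C, and INHBB only through H460R. Medium, adhesion, and slide differ between the populations as well, and their part in these differences cannot be told apart.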

How the results depend on the processing

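Of the 24 called differences, 15 kept their call and direction in every alternative that gave a test, and 9 (INHBB, BMP7, BMPR1A, ACVR1, SMAD4, SMAD6, SKIL, LTBP3, and ID1) lost the call in at least one. None of the 24 reversed. Of the 15, TGFB3 and INHBE did not pass the stricter filter on dim probes, so they were not tested there. Without H460R replicate 1 or 2 no limma or Rank Products test was possible for lack of residual degrees of freedom or a second ratio, and Rank Products needed both H460C replicates as well. With a replicate block, and H460C as 2 samples, BAMBI (0.25), SMAD1 (-0.20), and SMAD5 (0.29) also passed. Same-numbered replicates deviated together with r = 0.206, but the labels do not pair them.

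The fold rule gave 1 higher and 2 lower members in H460C. It gave 4 and 7 with the scanner software's log ratio, 2 and 4 with the authors' table, 2 and 5 without background subtraction, and 3 and 5 on the Cy3 arrays. It gave 4 lower with an offset of 0, 1 lower with median centring or the mean over probes, and 2 higher on the Cy5 arrays. Leaving out H460C replicate 1 or 2 gave 1 to 2 higher and 2 to 5 lower members, with 2 and 5 without replicate 1. In H460R the rule gave 6 higher on the Cy3 arrays and 1 lower on the Cy5 arrays, in place of 3 and 0. Rank Products called 0 higher members in either population with the scanner software's log ratio (INHBA FDR = 0.0742 in H460C and 0.137 in H460R), and 2 higher in H460R without the filter. Limma against 0 called 11 higher and 13 lower in H460C and 20 higher and 9 lower in H460R, and against a minimum log2 ratio of 1 it called 2 higher in H460C and 3 in H460R. Differences higher in H460C numbered 4 with median centring or on the Cy5 arrays and 5 with the stricter filter, in place of 8. The cause of these shifts was not tested.

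Differences that reversed were uncalled and near 0. They were ACVR1B (0.0241) and LTBP2 (0.023) with median centring, INHA (-0.0111), SMAD5 (-0.0238), and SMAD7 (0.0167) on the Cy5 arrays, and LTBP4 (-0.0581) on the Cy3 arrays. With a replicate left out in turn, SMAD7 ranged from -0.0269 to 0.0143, LTBP2 from -0.1404 to 0.0671, and LTBP4 from -0.0167 to 0.0762.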
